A study of Mus musculus with 12 samples.

Results

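Genes of branched-chain amino acid (BCAA) and ketone catabolism, 10 in all, were followed in mouse hearts after acute myocardial infarction (AMI): *Bcat1*, *Bcat2*, *Bckdha*, *Bckdhb*, *Dbt*, *Ppm1k*, *Hibch*, *Ivd*, *Bdh1* and *Oxct1*. They were chosen by symbol, and all 10 were found among the 53801 genes of the count and TPM matrices and among the 15306 genes that passed the filter on low counts. RNA came from whole hearts of male C57BL/6N mice, 10 to 14 weeks old at surgery per the study's methods, after sham surgery or 1 or 7 days after permanent ligation of the left anterior descending coronary artery. Each group held 4 hearts with 1 library per heart, and neither a genetic change nor a drug is named for any of them. The labels list 0, 1 and 7 days after injury and do not say when sham hearts were collected. The labels do not say how much of each heart was infarcted, so a library mixes infarct and surviving muscle in unknown parts, and fewer cells of a type cannot be told apart from less RNA per cell.

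Leucine, isoleucine and valine are broken down mainly outside the liver, and heart muscle is among the tissues that oxidize them. An aminotransferase (BCAT1 in the cytosol or BCAT2 in mitochondria) turns each amino acid into its branched-chain keto acid. The mitochondrial branched-chain keto acid dehydrogenase then commits that acid to oxidation. Its decarboxylase consists of the BCKDHA and BCKDHB subunits, and DBT forms its core. The complex is switched off when the kinase BCKDK phosphorylates BCKDHA and switched on when the phosphatase PPM1K removes the phosphate. Separate enzymes finish each chain, among them IVD for leucine and HIBCH for valine. Ketone bodies reach the heart through the blood, where BDH1 oxidizes 3-hydroxybutyrate to acetoacetate and OXCT1 activates acetoacetate for entry into the TCA cycle.

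Of the 10 genes, 9 were lower than in sham on both days after AMI in the main fit, and *Bcat1* alone was higher. The number of genes that passed the test and the size of the falls depended on the scaling. So did the direction of *Bcat2* on day 1 and of *Hibch* and *Bdh1* on day 7. These limits and the shares over all genes are given below. On day 1 the 9 genes were lower by between 0.28 and 0.87 on the log2 scale. On day 7, 6 of them (*Bcat2*, *Bckdha*, *Bckdhb*, *Dbt*, *Ppm1k* and *Ivd*) had fallen to less than 50% of sham. *Bcat1* was 6.59-fold higher than in sham on day 1 and 6.72-fold higher on day 7, from a very low level.

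Counts were scaled with edgeR's TMM method and are given as CPM, that is, brought to a common library total. Genes are said to rise or fall only where the quasi-likelihood test of edgeR, fitted once to all 12 hearts, gave a false discovery rate (FDR, by Benjamini and Hochberg) below 0.05 over all 15306 genes. DEGs had, in addition, a fold change (FC) of 2 or greater. All adjusted p-values below come from that fit unless another test is named. Libraries held between 23204551 and 32166517 counts, and a floor of 3 counts was between 0.0933 and 0.129 CPM of a library's total. Both comparisons with sham share the same 4 sham hearts. Overlap of groups for single genes refers to CPM unless TPM is named. In TPM, *Bcat2*, *Bckdha*, *Bckdhb*, *Dbt*, *Hibch*, *Ivd* and *Bdh1*, separate in CPM, overlapped between sham and day 1. *Hibch* and *Oxct1* did so between sham and day 7, and *Bckdhb*, *Dbt* and *Ivd* between day 1 and day 7.

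The share of all genes that passed the same test sets the scale for these counts. On day 1 against sham, 1 of the 10 genes rose, against 22.0% of all genes tested, and 9 fell, against 19.9%. At a FC of 2 or greater, 1 rose, against 7.79%, and 0 fell, against 2.98%. On day 7 against sham, 1 rose, against 30.9%, and 9 fell, against 28.4%. At a FC of 2 or greater, 1 rose, against 15.3%, and 6 fell, against 5.88%. From day 1 to day 7, 0 rose, against 24.2%, and 7 fell, against 22.8%. The median log2 FC of the 10 genes was -0.67 on day 1 against sham, -1.27 on day 7 against sham and -0.66 on day 7 against day 1, beside medians of -0.012, 0.026 and 0.021 over all genes tested.

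The size of these falls depended on the scaling, and the TMM factors, 0.781 to 0.917 in sham hearts, were 1.01 to 1.06 on day 1 and 1.10 to 1.17 on day 7. On library sizes alone, the median of all genes moved to 0.26 on day 1 and 0.43 on day 7 against sham, and 5 rather than 9 of the 10 genes passed as lower on day 1, with *Bcat2*, *Ppm1k*, *Hibch* and *Bdh1* no longer called. The share of all calls that were higher was 52.5% on day 1 and 52.1% on day 7 with TMM, and 85.6% and 83.2% on library sizes alone. With limma on log2(TPM + 1) those shares were 89.3% and 90.0%. Genes called lower on day 1 were 3043 of 15306 with TMM, 1061 of 15306 on library sizes alone and 731 of 15138 with that limma fit. On day 7 they were 4353, 1659 and 1018. Genes called higher were 3360, 6289 and 6101 on day 1 and 4728, 8237 and 9181 on day 7, in the same order. Under each of the 5 scalings tried, the same 9 genes lay below the median of all genes on both days against sham, and *Bcat1* lay above it. The count scalings differ by a factor per library, which the comparison with the median largely removes, and the TPM fits differ only in the value added. Agreement within each of these kinds was therefore largely fixed in advance. Transcripts of the mitochondrial genome took 17.9% to 27.4% of counts in sham, 12.1% to 15.9% on day 1 and 13.2% to 19.2% on day 7, and leaving them out before TMM scaling changed no call among the 10 genes. Relative to the median of all genes, the 10 genes had a median between -0.66 and -0.57 on day 1 and between -1.29 and -1.09 on day 7.

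**Figure D1:**
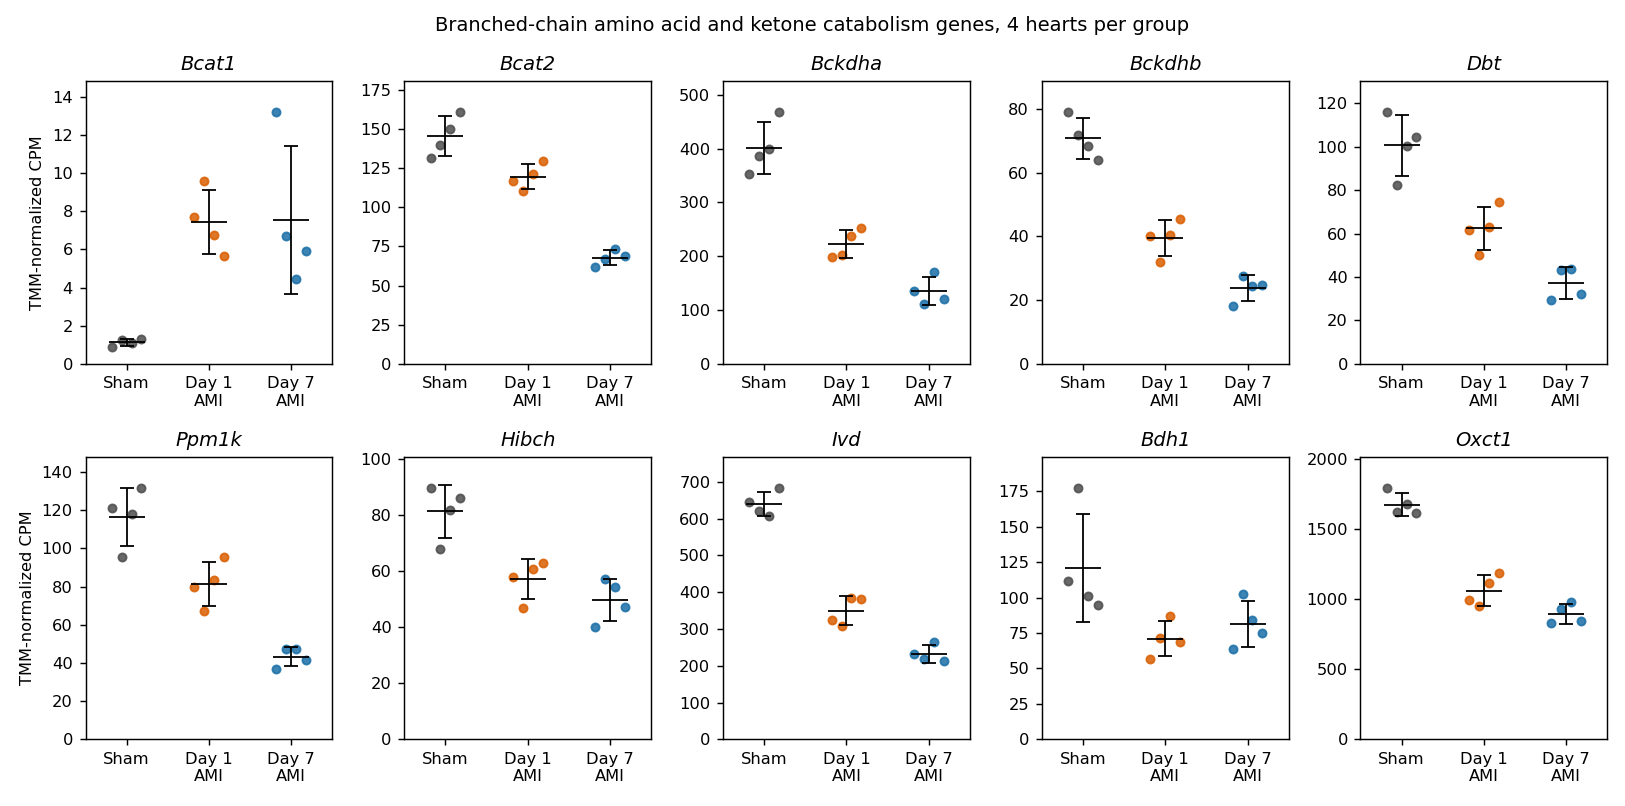
TMM-normalized CPM of the 10 genes, with 1 panel per gene and a vertical axis that starts at 0. Points are single hearts, and the black marks show the mean and SD of 4 hearts. *Bcat1* rises from about 1.12 CPM in sham to 7.43 and 7.55 CPM, while *Bcat2*, *Bckdha*, *Bckdhb*, *Dbt*, *Ppm1k* and *Ivd* step down from sham to day 1 and again to day 7.

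The sequence before the start site is shown for 3 genes that stand for the different patterns: *Bcat1*, which rose, *Ivd*, which fell, and *Ppm1k*, which had the most negative change from day 1 to day 7. The sequences are from RefSeq on GRCm38.p6, read 5′ to 3′ on the strand of the gene. They stop before the first annotated exon, and capitals mark a GC box (GGGCGG) or a CCAAT box (CCAAT) on either strand. *Bcat1* is shown for chr6:145076185-145076407 on the minus strand, *Ivd* for chr2:118861744-118861953 on the plus strand, and *Ppm1k* for chr6:57535488-57535737 on the minus strand.
Bcat1: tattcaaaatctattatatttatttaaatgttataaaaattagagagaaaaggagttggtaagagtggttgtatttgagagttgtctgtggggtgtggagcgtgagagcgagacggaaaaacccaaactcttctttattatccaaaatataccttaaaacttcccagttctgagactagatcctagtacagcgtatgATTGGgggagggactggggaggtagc
Ivd: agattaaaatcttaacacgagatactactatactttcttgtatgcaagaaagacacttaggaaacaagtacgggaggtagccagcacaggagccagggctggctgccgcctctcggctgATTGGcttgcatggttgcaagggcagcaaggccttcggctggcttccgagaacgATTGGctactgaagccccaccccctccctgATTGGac
Ppm1k: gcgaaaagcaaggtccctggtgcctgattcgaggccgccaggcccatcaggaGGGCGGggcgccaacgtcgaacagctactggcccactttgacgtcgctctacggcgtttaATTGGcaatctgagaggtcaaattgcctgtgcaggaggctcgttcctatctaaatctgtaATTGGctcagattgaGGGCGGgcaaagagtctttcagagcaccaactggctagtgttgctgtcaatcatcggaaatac

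These stretches held 1 CCAAT box in *Bcat1*, 3 in *Ivd*, and 2 CCAAT boxes with 2 GC boxes in *Ppm1k*. RefSeq promoter windows, which run from 250 bases before a start site to 50 after it, were matched for 9 of the 10 genes, in 13 windows, and *Dbt* was not matched. A GC box was in 4 of the 13 windows, against 35.7% of 32851 windows of all genes, and a CCAAT box was in 5 of 13, against 37.4%. The element TCAAGGTCA, bound by estrogen-related receptors, was in 0 of 13 windows and in 0.423% of all windows. The E-box CACGTG was in 0 of 13 and in 7.15% of all. No 2 of these motifs overlapped in the stretches printed.

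The aminotransferases moved in opposite directions. *Bcat1* (chr6:144993835-145076184 on GRCm38, minus strand) encodes the cytosolic enzyme, which is best known from brain, embryonic and activated immune cells. In the sham hearts its level was 0.887, 1.23, 1.07 and 1.29 CPM, from 17 to 30 counts per library. On day 1 it was 7.69, 9.61, 6.77 and 5.64 CPM, and on day 7 it was 13.2, 6.68, 4.43 and 5.92 CPM. No AMI heart overlapped the sham hearts on either day, and the day 7 replicate 1 heart was the highest of the 12. The log2 FC was 2.72 (SE 0.326, adjusted p = 4.98e-05) on day 1 and 2.75 (SE 0.326, adjusted p = 6.98e-06) on day 7 against sham. Day 7 against day 1 gave a log2 FC of 0.029 (adjusted p = 0.941), and -0.39 (adjusted p = 0.130) without the day 7 replicate 1 heart.

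*Bcat2* (chr7:45570153-45589711, plus strand) encodes the mitochondrial aminotransferase. Its level was 132, 139.6, 150.5 and 161 CPM in sham, 117, 111, 122 and 129.6 CPM on day 1, and 62.2, 67.1, 73.7 and 68.6 CPM on day 7. The groups did not overlap, and most of the fall lay between day 1 and day 7. Against sham, the log2 FC was -0.28 (SE 0.0832, adjusted p = 0.0143) on day 1 and -1.10 (SE 0.0844, adjusted p = 1.69e-07) on day 7, and that between day 7 and day 1 was -0.82 (SE 0.0839, adjusted p = 5.07e-06). The small day 1 call was lost without the sham replicate 4 heart (adjusted p = 0.0520), and on log2(TPM + 1) the day 1 difference was 0.036 (adjusted p = 0.787).

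Between the aminotransferases, the log2 ratio of *Bcat1* to *Bcat2* CPM went from -6.94 ± 0.162 (SD, n = 4) in sham to -4.02 ± 0.415 on day 1 and -3.27 ± 0.759 on day 7. The ratio was therefore below 1 in every heart, with *Bcat2* the more abundant of the pair. The AMI hearts did not overlap sham on either day (p = 0.0286 in an exact permutation test, two-sided, which is the lowest p that 4 hearts against 4 allow, adjusted p = 0.107 over 15 ratio tests). With 15 tests, the adjustment left no ratio below 0.05. Day 1 and day 7 hearts overlapped, with a difference of 0.75 (exact permutation p = 0.143, adjusted p = 0.306).

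The genes of the decarboxylase subunits and the core, *Bckdha*, *Bckdhb* and *Dbt*, all fell on both days. *Bckdha* (chr7:25629946-25658981, minus strand) encodes the decarboxylase subunit that carries the regulatory phosphate. Its level was 353, 387, 400.3 and 467 CPM in sham, 199, 203, 237 and 253 CPM on day 1, and 135, 112, 171 and 121 CPM on day 7. The 3 groups were separate from each other. The log2 FC was -0.85 (SE 0.133, adjusted p = 0.000258) on day 1 and -1.58 (SE 0.136, adjusted p = 4.32e-07) on day 7 against sham, and -0.73 (adjusted p = 0.000528) on day 7 against day 1.

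*Bckdha* shares 61.7% of its exon bases with *B3gnt8*, a glycosyltransferase gene on the opposite strand, and the strand counted is not stated in the sources used here. Opposite-strand genes also cover 15.9% of the exon bases of *Bcat2*, 13.7% of *Bdh1*, 12.6% of *Oxct1* and 3.62% of *Bcat1*. The levels of those overlapping genes are not given here. *B3gnt8* itself was at 5.39 ± 0.797 CPM in sham, 5.76 ± 0.737 on day 1 and 8.35 ± 1.39 on day 7 (SD, n = 4). It rose on day 7 against sham by 0.63 on the log2 scale (adjusted p = 0.00268), opposite to *Bckdha* and at a much lower level.

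*Bckdhb* (chr9:83925145-84124240, plus strand) encodes the other decarboxylase subunit. Its level was 78.9, 71.9, 68.3 and 63.9 CPM in sham, 40.04, 32.1, 40.3 and 45.5 CPM on day 1, and 18.1, 27.5, 24.5 and 24.8 CPM on day 7. Every day 1 heart was below every sham heart, and every day 7 heart below every day 1 heart. The log2 FC against sham was -0.84 (SE 0.128, adjusted p = 0.000209) on day 1 and -1.58 (SE 0.131, adjusted p = 3.24e-07) on day 7, with -0.74 (adjusted p = 0.000386) from day 1 to day 7, a step that was -0.29 (adjusted p = 0.183) on log2(TPM + 1).

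*Dbt* (chr3:116513070-116549981, plus strand) encodes the core of the complex, which transfers the shortened acyl group to coenzyme A. In sham its level was 116, 82.2, 100.4 and 104 CPM. It was 61.8, 50.1, 62.9 and 74.7 CPM on day 1, and 29.5, 43.3, 43.4 and 32.2 CPM on day 7. The groups again did not overlap in CPM, while in TPM day 1 overlapped both sham and day 7. In the fit, log2 FCs against sham were -0.69 (SE 0.149, adjusted p = 0.00226) on day 1 and -1.44 (SE 0.152, adjusted p = 2.46e-06) on day 7, and -0.75 (adjusted p = 0.00101) from day 1 to day 7.

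The remaining subunit gene, *Dld*, encodes a dehydrogenase that other mitochondrial complexes share, and it is named after its values were seen. It was at 499.8 ± 49.1 CPM (SD, n = 4) in sham, 356 ± 46.1 on day 1 and 263 ± 37.1 on day 7. Its log2 FC against sham was -0.49 (SE 0.119, adjusted p = 0.00475) on day 1 and -0.93 (SE 0.120, adjusted p = 1.48e-05) on day 7, closer to 0 than those of the 3 genes above, a difference that was not tested. On log2(TPM + 1) these were -0.21 (adjusted p = 0.186) and -0.39 (adjusted p = 0.0142).

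Ratios among the decarboxylase and core genes stayed within the spread of the hearts. The log2 ratio of *Bckdhb* to *Bckdha* was -2.50 ± 0.294 (SD, n = 4) in sham, -2.50 ± 0.146 on day 1 and -2.50 ± 0.417 on day 7 (exact permutation p = 0.971 and 1.0 for day 1 and day 7 against sham). That of *Dbt* to *Bckdha* was -1.999 ± 0.280, -1.84 ± 0.150 and -1.86 ± 0.349 (exact permutation p = 0.371 and 0.543). A p that misses the threshold does not show equal ratios, since these SDs are as large as the differences.

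*Ppm1k* (chr6:57506502-57535468, minus strand) encodes the phosphatase that activates the complex. Its level was 121, 95.5, 118 and 132 CPM in sham, 79.8, 67.4, 83.3 and 95.6 CPM on day 1, and 36.8, 47.2, 47.1 and 41.7 CPM on day 7. The highest day 1 heart reached the lowest sham heart, while all day 7 hearts lay below both other groups. The log2 FC against sham was -0.52 (SE 0.121, adjusted p = 0.00397) on day 1 and -1.43 (SE 0.124, adjusted p = 4.64e-07) on day 7. Its change from day 1 to day 7, -0.92 (SE 0.123, adjusted p = 4.66e-05), was the most negative among the 10 genes. The day 1 call against sham was lost in 3 of 10 other fits (adjusted p up to 0.276), and the value was -0.17 on log2(TPM + 1).

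The opposing kinase gene *Bckdk* also fell. It was at 119, 107, 118 and 139.6 CPM in sham, 89.2, 80.5, 91.6 and 85.98 CPM on day 1, and 70.4, 67.7, 81.9 and 67.4 CPM on day 7. The log2 FC was -0.48 (adjusted p = 0.00104) on day 1 and -0.75 (adjusted p = 9.39e-06) on day 7 against sham. On log2(TPM + 1) both calls were lost, at -0.19 (adjusted p = 0.117) and -0.054 (adjusted p = 0.627), and on library sizes alone the day 1 call was lost (adjusted p = 0.0672). The log2 ratio of *Ppm1k* to *Bckdk* was -0.057 ± 0.0887 (SD, n = 4) in sham, -0.10 ± 0.176 on day 1 and -0.74 ± 0.176 on day 7. All 4 day 7 hearts had a lower ratio than every sham and every day 1 heart (exact permutation p = 0.0286 for each, adjusted p = 0.107), with differences of -0.68 and -0.63. On day 1 against sham the difference was -0.044 (exact permutation p = 0.657).

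**Figure D2:**
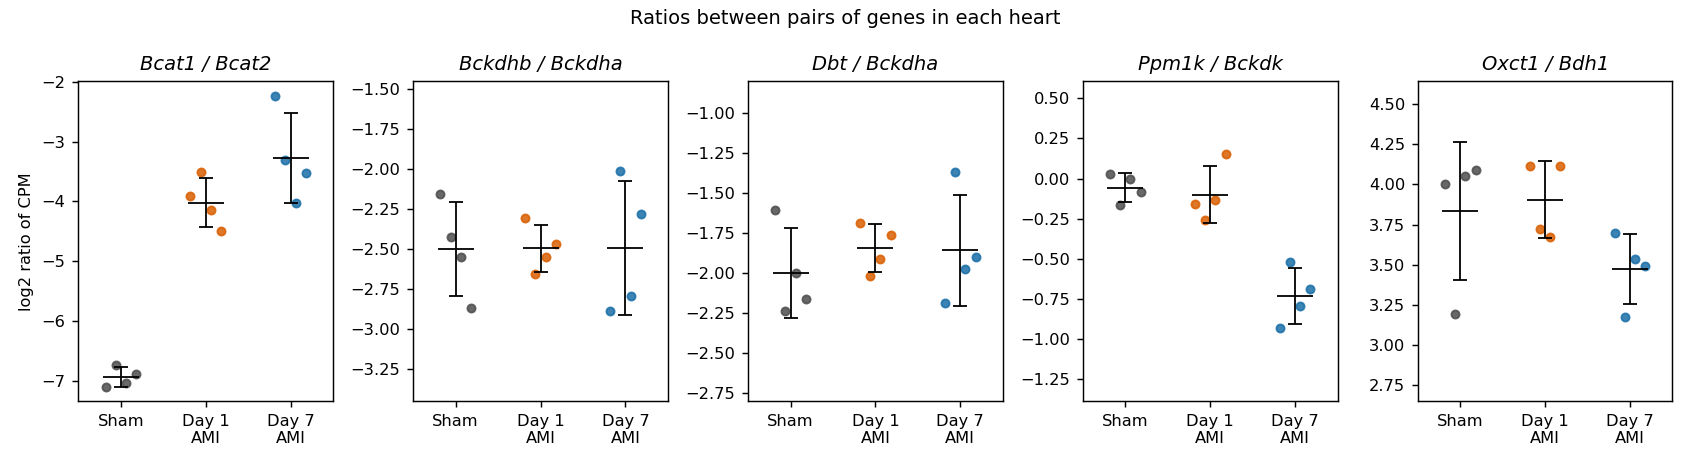
Log2 ratio of CPM between 5 pairs of genes, with points for single hearts and black marks for the mean and SD of 4 hearts. Vertical axes differ in range, and the 4 panels on the right each span 2 log2 units. *Bcat1* to *Bcat2* is higher in every AMI heart than in sham, *Bckdhb* to *Bckdha* and *Dbt* to *Bckdha* overlap in all groups, and *Ppm1k* to *Bckdk* is lower in the 4 day 7 hearts.

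Downstream of the complex, *Ivd* and *Hibch* both fell. *Ivd* (chr2:118861954-118882909, plus strand) encodes isovaleryl-CoA dehydrogenase of the leucine branch. Its level was 646, 622, 607 and 683 CPM in sham, 324, 309, 385 and 381 CPM on day 1, and 232, 218, 265 and 215 CPM on day 7. The 3 groups did not overlap. It fell against sham with a log2 FC of -0.87 (SE 0.0975, adjusted p = 3.21e-05) on day 1 and -1.46 (SE 0.0988, adjusted p = 6.45e-08) on day 7. From day 1 to day 7 it was -0.59 (adjusted p = 0.000239), and -0.29 (adjusted p = 0.0669) on log2(TPM + 1). The day 1 value against sham was the most negative of the 10 genes with TMM, close to *Bckdha* (-0.85) and *Bckdhb* (-0.84). On log2(TPM + 1) *Bckdhb* (-0.59) and *Bckdha* (-0.53) were more negative than *Ivd* (-0.45).

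*Hibch* (chr1:52844929-52920986, plus strand) encodes the hydrolase that frees 3-hydroxyisobutyrate in the valine branch. Its level was 89.7, 67.9, 81.8 and 86.1 CPM in sham, 58.1, 46.8, 60.7 and 63.1 CPM on day 1, and 40.2, 57.1, 54.2 and 47.4 CPM on day 7. The AMI hearts lay below sham on both days, but day 1 and day 7 overlapped. The log2 FC against sham was -0.51 (SE 0.125, adjusted p = 0.00507) on day 1 and -0.71 (SE 0.125, adjusted p = 0.000221) on day 7, and day 7 against day 1 gave -0.20 (adjusted p = 0.201). On log2(TPM + 1) the day 7 difference from sham was 0.061 (adjusted p = 0.758), so its direction depended on the scale. The day 1 call was lost in 3 of 10 other fits (adjusted p up to 0.327), and the day 1 value was -0.21 on log2(TPM + 1).

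With TMM both ketone genes fell on day 1, and *Oxct1* passed the test for a small further fall by day 7. *Oxct1* (chr15:4026383-4155344, plus strand) encodes the transferase that activates acetoacetate and had the highest level of the 10 genes per transcript length, at 618 ± 68.5 TPM (SD, n = 4) in sham. In CPM it was 1789.6, 1617, 1674 and 1611 in sham, 991, 947, 1111 and 1187 on day 1, and 827, 927, 977 and 842 on day 7. Every AMI heart was below every sham heart, and the AMI groups overlapped. Log2 FCs against sham stood at -0.66 (SE 0.0939, adjusted p = 0.000135) on day 1 and -0.91 (SE 0.0943, adjusted p = 2.25e-06) on day 7. The step from day 1 to day 7 was -0.25 (SE 0.0936, adjusted p = 0.0434), and this call was lost in 5 of 8 fits that left out 1 heart, with adjusted p up to 0.116. Those hearts were day 1 replicates 3 and 4 and day 7 replicates 1, 2 and 4. It was also lost in 6 of 10 other fits, and on log2(TPM + 1) the step was 0.11 (adjusted p = 0.415).

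*Bdh1* (chr16:31422280-31458901, plus strand) encodes the mitochondrial 3-hydroxybutyrate dehydrogenase. Its level was 112, 177, 101 and 94.7 CPM in sham, 56.98, 71.6, 87.3 and 68.5 CPM on day 1, and 63.7, 103, 84.2 and 74.8 CPM on day 7. The day 1 hearts lay below sham, while the highest day 7 heart reached the sham range. The log2 FC against sham was -0.77 (SE 0.196, adjusted p = 0.00645) on day 1 and -0.58 (SE 0.195, adjusted p = 0.0202) on day 7, with 0.19 (adjusted p = 0.438) on day 7 against day 1.

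The sham replicate 2 heart held the highest *Bdh1* level, 177 CPM, and also the highest sum of 5 erythroid transcripts, 4450 CPM, beside 491 to 1178 CPM in the other sham hearts. Among the sham hearts, replicate 2 also had the highest leukocyte, macrophage, neutrophil, endothelial and adipocyte marker sums and the lowest cardiomyocyte marker sum, 95004 CPM. Its fibroblast and atrial sums were at neither end. The part of any of these transcripts in the *Bdh1* value was not tested. Without that heart the log2 FC was -0.53 (adjusted p = 0.0168) on day 1 and -0.34 (adjusted p = 0.0822) on day 7. The day 7 call was also lost without the day 7 replicate 1 heart (-0.47, adjusted p = 0.0630) or the day 7 replicate 4 heart (-0.54, adjusted p = 0.0519). On log2(TPM + 1) the day 7 difference was 0.14 (adjusted p = 0.571), and on library sizes alone it was -0.19 and not called. The day 1 call of *Bdh1* was lost in 3 of 10 other fits, with adjusted p up to 0.316. Its day 1 value was -0.27 on log2(TPM + 1) and -0.51 on library sizes alone. The log2 ratio of *Oxct1* to *Bdh1* was 3.83 ± 0.430 (SD, n = 4) in sham, 3.91 ± 0.243 on day 1 and 3.47 ± 0.219 on day 7, with overlap in each comparison (exact permutation p from 0.0571 to 0.743).

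**Figure D3:**
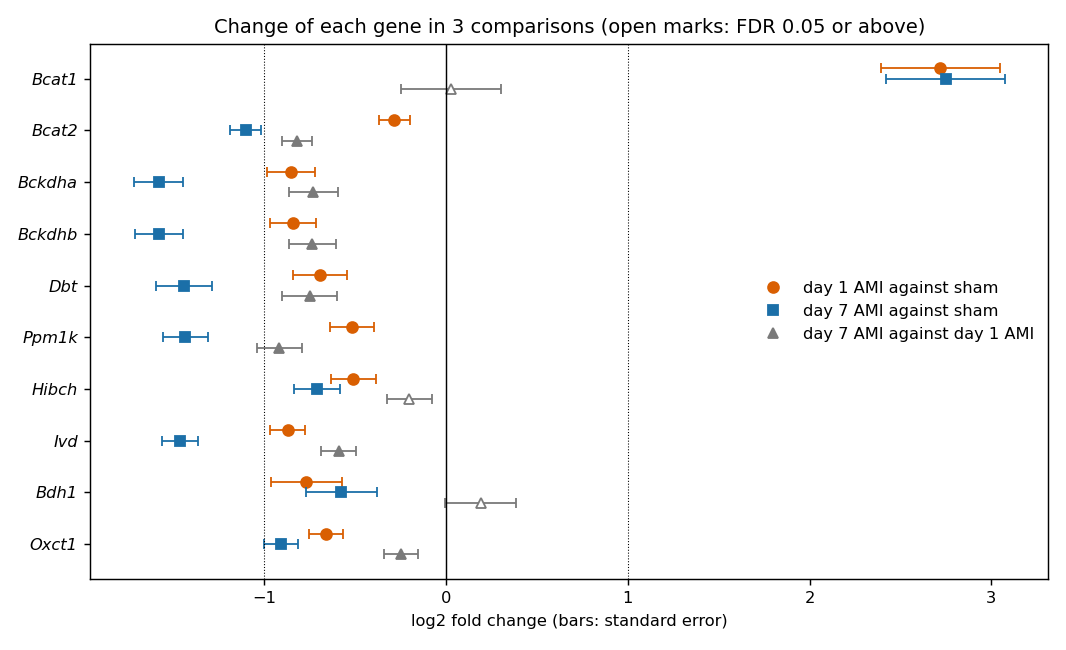
Log2 fold change of each gene with its standard error in 3 comparisons, from edgeR with TMM scaling. Filled marks passed an FDR of 0.05, open marks did not, and dotted lines mark a FC of 2. *Bcat1* lies near 2.7 on both days, 6 genes lie left of -1 on day 7 against sham, and the open marks are *Bcat1*, *Hibch* and *Bdh1* on day 7 against day 1.

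Per transcript length, the order of levels in sham was *Oxct1*, then *Bckdha* (267 ± 37.0 TPM, SD, n = 4) and *Ivd* (242 ± 19.1 TPM), whose ranges overlapped. *Bcat2* followed at 107 ± 12.2 TPM. Next came *Bckdhb* (71.8 ± 11.4 TPM), *Bdh1* (67.5 ± 24.6 TPM) and *Hibch* (58.9 ± 6.49 TPM), each overlapping its neighbor in that order. *Dbt* (37.4 ± 2.85 TPM), *Ppm1k* (24.3 ± 2.23 TPM) and *Bcat1* (0.675 ± 0.213 TPM) stood below, separate from each other. On day 7, *Bckdhb* lay below *Bdh1* and *Hibch* in the mean, at 38.7 ± 7.42 TPM against 72.2 ± 13.4 and 62.8 ± 15.3 TPM, and *Bcat1* remained the lowest at 4.78 ± 2.64 TPM.

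Markers of several cell types moved with the same groups. For scale, 22.0% of all genes rose and 19.9% fell on day 1 with TMM, and 30.9% rose and 28.4% fell on day 7. The mean log2 CPM of 12 cardiomyocyte markers was lower than in sham by 0.55 on day 1 and by 0.90 on day 7, and 10 and 11 of the 12 fell. On library sizes alone 6 and 8 fell, and on log2(TPM + 1) 4 and 7 fell, with 1 rising on day 1 in each. Their summed level was 95004 to 108308 CPM in sham, 54035 to 72689 CPM on day 1 and 45537 to 55786 CPM on day 7. All 6 leukocyte markers rose on both days, and their summed level went from 64.0 to 107 CPM in sham to 233 to 330.2 CPM on day 1 and 235 to 387 CPM on day 7. Fibroblast markers, 8 in all, summed to 1093 to 1335 CPM in sham and 8207 to 16464 CPM on day 7, with 6 rising and 1 falling on day 1 and 8 rising on day 7. Of 8 macrophage markers, 6 rose on day 1 and 8 on day 7, with sums of 174 to 272 CPM in sham, 295 to 399.6 CPM on day 1 and 401 to 628 CPM on day 7.

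Of 7 neutrophil markers, 6 passed the filter and *Ly6g*, a defining one, did not. Of these, 3 rose on day 1, and 1 rose and 1 fell on day 7, while the sums were 2.77 to 57.8 CPM in sham, 47.0 to 166 CPM on day 1 and 8.15 to 38.94 CPM on day 7. Endothelial markers, 7 in all, summed to 828 to 979 CPM in sham, 731 to 786 CPM on day 1 and 1151 to 1303 CPM on day 7, with 2 falling on day 1 and 6 rising on day 7. The endothelial direction on day 1 turned with the scaling, as 0 fell and 1 rose on library sizes alone, and 0 fell and 2 rose on log2(TPM + 1). Adipocyte markers summed to at most 4.64 CPM in any heart, and *Lep*, *Ucp1* and *Retn* did not pass the filter. Of 5 atrial markers, 1 rose and 1 fell on each day, with sums of 95.4 to 875 CPM in sham and 1218 to 1862 CPM on day 7, and 1 rose and 0 fell on each day on log2(TPM + 1). Of 5 erythroid markers, 3 fell on each day with TMM, 1 and 0 fell on library sizes alone, and 0 fell on either day on log2(TPM + 1). The part of these changes in the results for the 10 genes was not tested.

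Each of the 10 genes was set beside the cardiomyocyte markers of the same heart. The differences below are in log2 CPM of a gene minus the mean log2 CPM of the 12 markers, compared with exact two-sided permutation tests. On day 7 against sham, *Bckdha* was at -0.69, *Bckdhb* at -0.69, *Ivd* at -0.57, *Dbt* at -0.55 and *Ppm1k* at -0.53, with no overlap between groups. *Bcat2* was at -0.20, *Oxct1* at -0.0080, *Hibch* at 0.19 and *Bdh1* at 0.35, all with overlap. *Bcat1* was at 3.47 without overlap.

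On day 1 against sham, *Ivd* was at -0.33 and *Bcat2* at 0.27, both without overlap. *Bcat1* was at 3.18 without overlap, and the other 7 genes, between -0.30 and 0.036, overlapped. Each comparison without overlap had an exact permutation p of 0.0286 and an adjusted p of 0.0659 over 30 tests, so that none passed 0.05 after adjustment. With the mean of 16 TCA cycle genes in place of the markers, *Dbt* overlapped sham on day 7 (-0.41), and *Bckdha* and *Bckdhb* no longer overlapped it on day 1 (-0.35 each). *Oxct1* was at 0.13 on day 7 with overlap, and the lowest adjusted p was 0.0571.

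**Figure D4:**
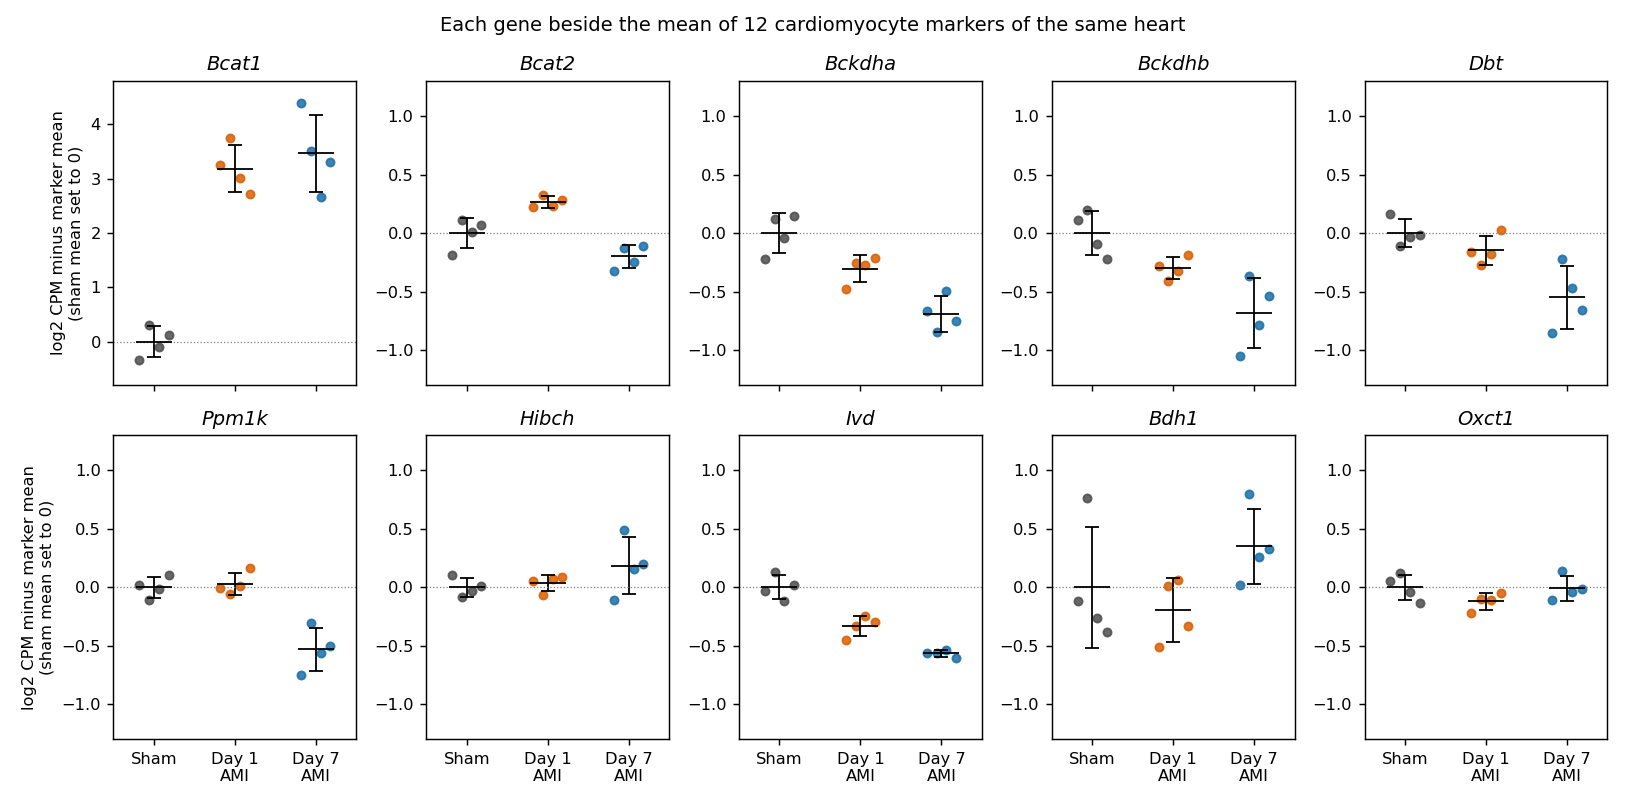
Log2 CPM of each gene minus the mean log2 CPM of 12 cardiomyocyte markers in the same heart, with the sham mean set to 0. Points are hearts, black marks are the mean and SD of 4 hearts, and the *Bcat1* panel has a wider vertical axis than the others. On day 7, *Bckdha*, *Bckdhb*, *Dbt*, *Ppm1k* and *Ivd* lie below all sham hearts, and *Oxct1* is centered near 0 at -0.0080.

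The rest of the pathways was read from a list of 34 further genes, of which 32 were tested. *Oxct2a* and *Oxct2b*, testis forms of the ketone transferase, had at most 1 count in any heart. On day 1 against sham 7 rose and 21 fell, on day 7 against sham 6 rose and 23 fell, and from day 1 to day 7, 2 rose and 24 fell. Their median log2 FC was -0.53, -0.95 and -0.48 in these comparisons. On library sizes alone 8 rose and 14 fell on day 1, and 8 rose and 21 fell on day 7. With limma on log2(TPM + 1) these counts were 8 and 11 on day 1 and 9 and 18 on day 7. With TMM, 22.0% of all genes tested rose and 19.9% fell on day 1. These shares were 30.9% and 28.4% on day 7, and 24.2% and 22.8% from day 1 to day 7. Counts over all genes under the other scalings are given above.

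Within the 25 BCAA genes of that list, 4 rose and 19 fell on day 1, against 22.0% and 19.9% of all genes. On day 7, 3 rose and 20 fell, against 30.9% and 28.4%. The genes that oxidize the chains past the keto acid dehydrogenase made up most of those that fell. *Aldh6a1*, which encodes the dehydrogenase that ends the valine branch, went from 322 ± 35.7 CPM (SD, n = 4) in sham to 181 ± 22.8 on day 1 and 117 ± 12.8 on day 7, with log2 FCs of -0.83 and -1.46 against sham (adjusted p = 9.92e-05 and 1.86e-07). *Mccc2*, a subunit of the leucine branch carboxylase, had log2 FCs of -0.73 and -1.37, and *Hsd17b10* of the isoleucine branch had -0.47 and -1.31. The other DEGs that fell on day 7 were *Mcee* (-1.29), *Hadh* (-1.28), *Mut* (-1.21), *Pcca* (-1.20), *Echs1* (-1.15), *Acadsb* (-1.15), *Acat1* (-1.14), *Pccb* (-1.07), *Auh* (-1.06), *Mccc1* (-1.04) and *Mmaa* (-1.03), with log2 FCs against sham in parentheses. With TMM 14 BCAA genes of the list fell by a FC of 2 or greater on day 7, against 1 on library sizes alone, *Aldh6a1*, and 0 on log2(TPM + 1), where 17 of the 25 still fell. The day 1 call of *Hsd17b10* was lost on both of these scales. Over all genes, 900 of 15306 fell by a FC of 2 or greater on day 7 with TMM. On library sizes alone 318 of 15306 did so, and on log2(TPM + 1) 115 of 15138. *Acat1* closes the isoleucine branch and also handles ketone-derived acetoacetyl-CoA, and *Pcca*, *Pccb*, *Mcee* and *Mut* carry propionyl-CoA toward the TCA cycle.

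The BCAA genes that rose were transporter genes or their partners: *Slc7a5*, *Slc7a8*, *Slc3a2* and *Slc25a44* on day 1 and *Slc7a5*, *Slc7a8* and *Slc43a1* on day 7. *Slc3a2*, *Slc25a44* and *Slc43a1* are named after their values were seen, and *Slc25a44* (log2 FC 0.21, adjusted p = 0.0482) was no longer called with RLE size factors (adjusted p = 0.0517). *Slc7a5*, a plasma membrane carrier of leucine, was at 5.87 ± 1.05 CPM (SD, n = 4) in sham, 22.7 ± 8.58 on day 1 and 14.8 ± 4.02 on day 7. Its log2 FC against sham was 1.95 (SE 0.269, adjusted p = 0.000110) on day 1 and 1.34 (SE 0.268, adjusted p = 0.000636) on day 7. *Slc7a8*, a related carrier, rose by 1.37 on day 1 (adjusted p = 0.000346) and by 0.99 on day 7 (adjusted p = 0.00166). *Slc7a5* and *Slc7a8*, like *Bcat1*, were at single-digit CPM in sham hearts.

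Of 11 genes on the ketone list, 9 were tested, and 3 rose and 3 fell on day 1 while 3 rose and 5 fell on day 7. Of all genes tested, 22.0% rose and 19.9% fell on day 1, and 30.9% rose and 28.4% fell on day 7. The 3 rises of the list on day 7 were thus near the share of all genes. The list's median log2 FC on day 7 against sham was -0.38 with TMM and 0.028 on library sizes alone, so its sign depended on the scaling. *Slc16a1*, the monocarboxylate carrier for lactate and ketone bodies, was at 329, 296, 249 and 241 CPM in sham, 316, 329.5, 289 and 293 CPM on day 1, and 196, 204, 196 and 188 CPM on day 7. Its log2 FC against sham was 0.14 (adjusted p = 0.270) on day 1 and -0.51 (adjusted p = 0.000439) on day 7, where all 4 hearts lay below sham. On log2(TPM + 1) these were 0.46 (adjusted p = 0.00169) and 0.058 (adjusted p = 0.603), and on library sizes alone the day 7 call was lost (adjusted p = 0.332).

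*Slc16a3*, a carrier known for lactate export, rose by 3.39 (SE 0.431, adjusted p = 7.03e-05) on day 1 and by 2.07 (adjusted p = 0.000808) on day 7, and fell from day 1 to day 7 by 1.32 (adjusted p = 0.0103), all on the log2 scale. That last step was -0.92 (adjusted p = 0.0769) on log2(TPM + 1). *Aacs*, which activates acetoacetate in the cytosol for lipid synthesis, rose from 4.07 ± 0.647 CPM (SD, n = 4) to 10.8 ± 1.53 and 9.36 ± 2.4 CPM (log2 FC 1.41 and 1.20, adjusted p = 8.07e-05 and 6.78e-05). *Bdh2*, named as a second hydroxybutyrate dehydrogenase, had only 3 to 35 counts per heart and rose on day 7 with a log2 FC of 1.33 (adjusted p = 0.0142).

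Among 8 regulator and sensor genes, 2 rose and 5 fell on day 1, and 2 rose and 6 fell on day 7. On log2(TPM + 1) 2 rose and 1 fell on day 1, and 1 rose and 3 fell on day 7. With TMM, 22.0% of all genes rose and 19.9% fell on day 1, and 30.9% rose and 28.4% fell on day 7. The 2 of 8 that rose were near those shares. *Klf15*, a transcription factor known to drive BCAA catabolic genes in heart and muscle, was at 53.0, 77.8, 59.9 and 66.4 CPM in sham, 38.3, 32.8, 39.3 and 43.6 CPM on day 1, and 16.5, 17.5, 25.7 and 13.9 CPM on day 7. The groups were separate at each step, with log2 FCs of -0.74 (adjusted p = 0.00279) and -1.81 (adjusted p = 9.72e-07) against sham and -1.07 (adjusted p = 0.000175) from day 1 to day 7. The day 1 call of *Klf15* was lost on log2(TPM + 1), at -0.42 (adjusted p = 0.0581). *Esrra*, an estrogen-related receptor gene, was at -0.28 (adjusted p = 0.140) on day 1 and fell by 1.29 (adjusted p = 5.76e-06) on day 7. *Mlxipl*, a carbohydrate-responsive factor, fell by 1.18 (adjusted p = 2.36e-05) on day 1 and by 0.79 (adjusted p = 8.31e-05) on day 7. The day 7 value of *Mlxipl* was -0.39 (adjusted p = 0.0153) on library sizes alone and -0.24 (adjusted p = 0.137) on log2(TPM + 1). *Hcar2*, the receptor for 3-hydroxybutyrate on myeloid cells and adipocytes, had 0 to 2 counts in the sham hearts, 25 to 69 on day 1 and 4 to 34 on day 7, and rose on both days (adjusted p = 0.000404 and 0.00388), without a fold given because sham lay at or under the floor of 3 counts. Its day 7 call was lost on log2(TPM + 1) (adjusted p = 0.05003).

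**Figure D5:**
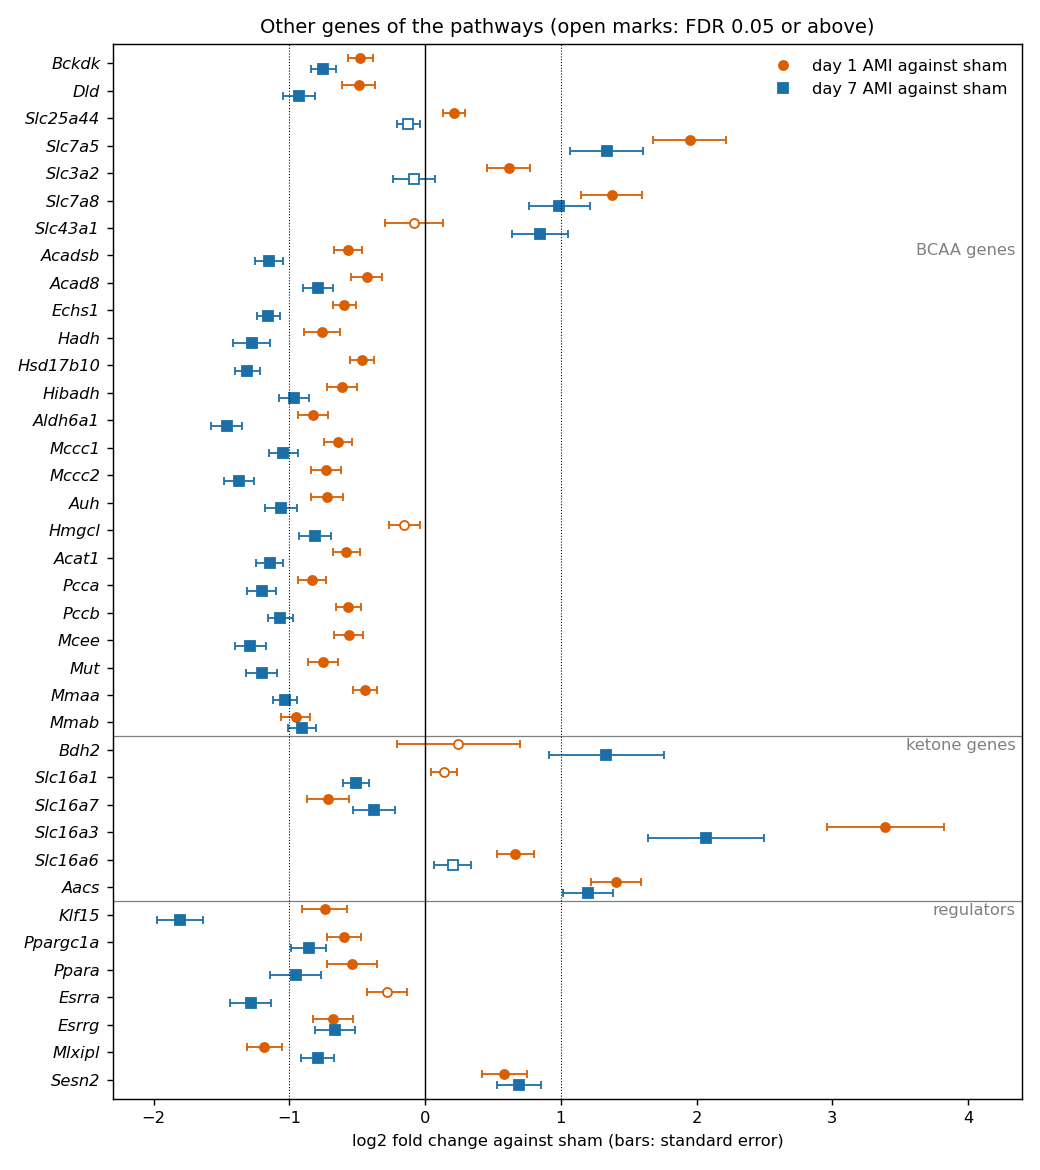
Log2 fold change against sham, with standard error, of other BCAA, ketone and regulator genes that were tested, without *Hcar2*. Circles are day 1, squares are day 7, open marks did not pass an FDR of 0.05, and dotted lines mark a FC of 2. Most oxidation genes lie between -0.4 and -1.5 with day 7 left of day 1, while *Slc7a5*, *Slc7a8*, *Slc16a3* and *Aacs* lie to the right of 0.

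The 16 TCA cycle genes gave a yardstick for mitochondrial transcripts in the same hearts. All 16 fell on both days with TMM, with a median log2 FC of -0.51 on day 1 and -1.02 on day 7 against sham, beside -0.67 and -1.27 for the 10 genes. On library sizes alone 6 of 16 fell on day 1 and 16 on day 7, and on log2(TPM + 1) 3 and 15 fell. With TMM, 19.9% of all genes fell on day 1 and 28.4% on day 7.

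The 5 genes whose log2 CPM followed *Bcat1* most closely over the 12 hearts, of 11405 genes searched, were *Basp1* (Pearson r = 0.991), *Tnc* (0.989), *Fam129b* (0.988), *Ap2b1* (0.988) and *Rps12* (0.984). For *Bdh1* they were *Zfp174* (0.902), *Cyyr1* (0.894), *Tmem243* (0.876), *B4galt4* (0.870) and *Kifc2* (0.862). These correlations rest on 12 hearts in 3 groups that share the difference between sham and AMI, and describe likeness only.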

How the data were processed

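RNA sequencing of 12 whole mouse hearts was re-analysed, and each library was grouped by its label. The authors sequenced 150-bp paired-end reads, and the submitters' processing notes name CASAVA 1.8, STAR 2.4.0j, RSEM and mm10. The authors deposited raw counts per gene without normalization, and the counting tool is not given in the sources used here. The authors also deposited TPM values from RSEM.

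Counts were tested with edgeR 4.0.16 in R 4.3.3 (TMM, filterByExpr, quasi-likelihood, one fit of 3 groups). SEs are those implied by the F statistic, and log2 CPM used a prior count of 2. Alternatives were DESeq2 1.42.0, limma 3.58.1 on log2(TPM + 1) and log2(TPM + 0.1), other scalings and filters, a replicate block, and each heart left out. Exon overlaps and positions are from GENCODE M21. In simulated day 7 against sham counts over 15306 genes, edgeR recovered 95 of 100 genes changed by a log2 FC of 1. It recovered 100 of 100 changed by 2, with 12 false calls. The simulation gave all genes the same relative spread and changed few genes, with rises and falls in equal number. It therefore does not test the choice of scaling, nor genes at the low level of *Bcat1* in sham.

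The members and lists were chosen with earlier results of these data known. Named genes are the 10 members, *Bckdk*, *Klf15*, *Slc16a1*, any other listed pathway or regulator gene that was a DEG, and the 5 genes most like *Bcat1* and *Bdh1* among those with at least 5 CPM in the highest group. Of the listed genes, 1 stands in the list counts and medians and is otherwise not reported here. *B3gnt8* was added because it overlaps *Bckdha*. Labels do not say that hearts came from separate cohorts, so p-values measure the spread between these hearts. Within a group, no library repeated another (chi-square per degree of freedom at least 9.41). Libraries of different groups were not compared in this way. The floor covers counting error only.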

Additional observations from a re-analysis of the deposited data

Results flagged for a closer look

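For 7 of the 10 genes, the change from sham on day 7 differed from that on day 1, as tested by day 7 AMI against day 1 AMI in edgeR's fit with adjusted p over 15306 genes. The difference between those changes was -0.82 in log2 FC for *Bcat2*, -0.73 for *Bckdha*, -0.74 for *Bckdhb*, -0.75 for *Dbt*, -0.92 for *Ppm1k*, -0.59 for *Ivd* and -0.25 for *Oxct1*. Each was lower on day 7. In that comparison 24.2% of all genes tested rose and 22.8% fell. The *Oxct1* call was lost in 5 of 8 fits that left out 1 heart. Those of *Bckdhb*, *Ivd* and *Oxct1* were lost with both limma fits. *Bcat1*, *Hibch* and *Bdh1* did not pass that test. No gene had a single heart far enough from its group to be set apart, and *Bdh1* in the sham replicate 2 heart came nearest, with a gap of 0.794 of the group's range, under Dixon's limit for 4 samples.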

How the results depend on the processing

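The alternatives were 10 other fits and 12 that left out 1 heart. Beside 9 genes lower on day 1 against sham, 5 were lower with limma on log2(TPM + 1), limma on log2(TPM + 0.1) and edgeR on library sizes alone. Those no longer called were *Bcat2*, *Ppm1k*, *Hibch* and *Bdh1*. Over all genes, 731 of 15138, 742 of 15138 and 1061 of 15306 were lower in those fits, in that order, beside 3043 of 15306 in the main fit. With both limma fits, 1 rather than 6 was lower at a FC of 2 or greater on day 7 against sham, and 4 rather than 7 were lower on day 7 against day 1, without *Bckdhb*, *Ivd* and *Oxct1*. Over all genes, 115 and 203 of 15138 were lower at that FC on day 7 against sham, beside 900 of 15306 in the main fit. On day 7 against day 1, 1306 and 1244 of 15138 were lower, beside 3496 of 15306. Leaving out 1 heart gave 0 to 1 genes lower at a FC of 2 or greater on day 7 against day 1, the 1 being *Ppm1k* at -1.001 without the day 1 replicate 2 heart. Other counts of members stayed within 1.5 times.

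Directions turned with both limma fits for *Bcat2* on day 1 (0.036 in each), for *Hibch* (0.061 in each) and *Bdh1* (0.14) on day 7 against sham, and for *Hibch* (0.27) and *Oxct1* (0.11) on day 7 against day 1. *Bcat1* on day 7 against day 1, not called in any fit, was -0.025 and -0.046 with limma, -0.040 with a replicate block, and from -0.39 to 0.21 with 1 heart left out. On log2(TPM + 0.1), the small ratio differences turned for *Bckdhb* to *Bckdha* (-0.069), *Ppm1k* to *Bckdk* (0.018) and *Oxct1* to *Bdh1* (-0.083) on day 1, and for *Dbt* to *Bckdha* (0.049) on day 7 against day 1. Beside the markers on the TPM scale, *Oxct1* was at 0.069 on day 7 against sham. Beside the TCA cycle list it was at 0.13, and on day 1 *Ppm1k* was at -0.017 and *Hibch* at -0.0099. The cause of these moves was not tested.

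Replicate numbers name different mice. Correlations of same-numbered hearts' deviations ran from -0.49 to 0.31. Differently numbered hearts were not compared, so these values do not settle whether the numbers pair hearts. With a replicate block, the *Oxct1* call on day 7 against day 1 was lost (adjusted p = 0.0693), and the other member calls did not change. Counting error limits *Bcat1* in sham, *Bdh2* and *Hcar2*.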
